A study of Mus musculus with 6 samples.

Results

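Genes that fold secreted and membrane proteins in the endoplasmic reticulum (ER), or that sense and clear misfolded proteins there, were compared between mouse hematopoietic progenitors carrying an EVI1 vector and progenitors carrying an EGFP vector. The set was drawn up by function, with earlier results of these data known. It holds 44 genes: chaperones, disulfide isomerases and oxidases, stress sensors, degradation factors and parts of the translocon. A gene counted as measured if a probe set carried its symbol and no other symbol, and the probe set with the highest mean stood for it. By that rule 42 of the 44 genes were measured, among 19937 genes in all; Mbtps2 and Sec61g were not. Ero1l, Ero1lb, Selk and Vimp are listed on the array as Ero1a, Ero1b, Selenok and Selenos and are called so here.

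Proteins entering the ER pass the Sec61 channel and fold with the help of the Hsp70 chaperone BiP, the lectins calnexin and calreticulin, and disulfide isomerases. When unfolded proteins build up, the sensors IRE1, ATF6 and PERK start the unfolded protein response. IRE1 splices the mRNA of Xbp1, ATF6 is cleaved in the Golgi into a transcription factor, and PERK phosphorylates eIF2 alpha and so favours translation of ATF4. Proteins that cannot be folded leave the ER through the HRD1 ubiquitin ligase complex and are degraded. In blood-forming cells this machinery is known to be large in granule-forming and antibody-secreting cells, and stem cells are known to be sensitive to its overload.

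The arrays labelled EVI1 (3) and EGFP (3) both came from lineage-depleted (Lin-) cells of C57BL6 mice whose Rosa26 locus expresses the tetracycline transactivator rtTA. Both groups were cultured with stem cell factor, interleukin 3, Flt3 ligand and interleukin 11, were transduced with a lentiviral vector under a tetracycline-responsive promoter, received doxycycline at 1 µg/ml and were sorted for EGFP. The EVI1 vector carried Evi1 followed by an internal ribosome entry site and EGFP, and the other vector carried EGFP alone. RNA was taken 20 h after doxycycline in the design text and 24 h after it in the sample protocols, and neither says whether animals were pooled.

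Mecom, the gene that encodes EVI1, did not mark the groups as labelled. Its log2 intensity was 6.29, 6.18 and 6.49 in the arrays labelled EVI1, against 6.39, 7.53 and 6.86 in the arrays labelled EGFP. The difference was -0.60 ± 0.26 (log2, SE, n = 3 per group; limma adjusted p = 0.166), and an exact permutation test, two-sided, gave p = 0.2, with 0.1 the lowest p that 3 against 3 arrays allow. The difference was -0.87 without EGFP replicate 1 (adjusted p = 0.0306). Both means, 6.32 in EVI1 and 6.92 in EGFP, lay below the level that 95% of olfactory receptor genes do not exceed (6.99 in EVI1, 6.95 in EGFP), so this probe set does not show which group held more Mecom. Whether its probes read the vector's Evi1 sequence, and whether labels were exchanged, was not tested. Every direction below is that of the labels, and an exchange would turn all of them. Array medians ranged from 7.24 to 7.31, and EGFP replicate 2 had the lowest array weight, 0.452, with 0.874 to 1.55 on the others. In the arrays labelled EVI1, 5 of 7 measured progenitor markers fell, with log2 differences of -0.61 (Kit) to -2.45 (Cd34), and 1 rose. Over all genes 9.18% fell and 9.06% rose. Of 7 lymphoid markers, 4 lay in both groups below the level that 95% of olfactory receptor genes do not exceed. That level served here as a mark of low signal. Thy1, of the same list, was bright and rose (means of 12.50 in EVI1 and 11.81 in EGFP), and Cd3g fell (5.79 in EVI1, 7.07 in EGFP).

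The promoters of some of these genes hold a common element. The members include factors of the unfolded protein response, so its share among them describes the set and is no independent result. The ER stress element (ERSE), a site known to bind NF-Y together with ATF6 or XBP1, consists of CCAAT and CCACG separated by 9 bases. It was searched on both strands of the RefSeq promoter windows (GRCm38.p6), which run from 250 bases before to 50 bases after the start of transcription. A window was found for 35 measured members, and 10 of them (28.6%) held the element, against 37 of 27025 genes (0.137%) in the whole table. The 10 were Calr, Canx, Creld2, Derl3, Dnajc3, Ero1b, Hsp90b1, Hspa5, Pdia6 and Syvn1. The related element ERSE-II (ATTGG, any base, CCACG), which shares its CCACG end with the ERSE, was found in 2 members, Herpud1 and Dnajb11, and in 0.044% of all genes. TGACGTGG, a site known to bind XBP1 and ATF6, was in none of the 35 windows and in 0.714% of all genes. TGATGNAAN, a site known to bind ATF4, was in the Herpud1 window and in 4.50% of all genes. Matches are letters in a window and not measured binding.

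Of the 10 members with an ERSE, 5 were called in the comparison described below, all as lower in the arrays labelled EVI1. Their elements are shown as those of the called members that hold the ERSE; the other 10 members that fell, Sdf2l1, Hyou1 and Manf among them, hold none in their window or have no window. CCAAT and CCACG, or their complements ATTGG and CGTGG where the element lies on the other strand, are in capitals, and each stretch is read on the strand of its gene. Hsp90b1 holds 2 elements, in opposite orientation.
Hspa5, chr2:34772005-34772063, plus strand: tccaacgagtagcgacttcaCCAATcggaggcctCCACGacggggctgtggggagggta
Pdia6, chr12:17266471-17266529, plus strand: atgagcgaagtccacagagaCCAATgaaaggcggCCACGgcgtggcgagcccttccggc
Creld2, chr15:88819500-88819558, plus strand: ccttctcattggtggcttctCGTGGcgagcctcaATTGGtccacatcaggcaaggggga
Calr, chr8:84847055-84847113, minus strand: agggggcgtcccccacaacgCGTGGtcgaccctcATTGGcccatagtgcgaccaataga
Hsp90b1, chr10:86705513-86705676, minus strand: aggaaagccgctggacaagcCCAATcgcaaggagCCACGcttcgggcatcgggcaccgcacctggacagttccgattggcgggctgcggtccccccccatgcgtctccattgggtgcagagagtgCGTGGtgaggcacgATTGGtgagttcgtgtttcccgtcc

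Many genes for folding in the ER were lower in the arrays labelled EVI1, each by less than 2-fold. Of 12 genes of ER-associated degradation 2 fell (16.7%) and 1 rose (8.33%), beside 9.18% and 9.06% of all genes. None of the 5 translocon genes passed the test, where 18.2% of all genes did. All 5 translocon differences were negative, with a median log2 fold change of -0.31. Of the 42 measured members 15 fell, 2 rose (Dnajb9 and Selenok) and 25 did not pass, where passing means a limma adjusted p under 0.05 with the Benjamini-Hochberg method over all 19937 genes. Over all genes 9.18% fell and 9.06% rose. The falls ranged from 1.28-fold to 1.97-fold, and no member differed by 2-fold, while 1177 genes passed the test with a difference of at least that size. The median log2 fold change of the members was -0.27, against 0.0059 over all genes, and 36 of the 42 lay below 0, as did 49.0% of all genes. All 3 EVI1 values lay below all 3 EGFP values for 23 members, where this held for 16.5% of all genes, and above them for 2 members (16.1% of all genes). The count of falls was 8 without EVI1 replicate 1, 8 without EVI1 replicate 2, 7 without EVI1 replicate 3 and 8 without EGFP replicate 3; over all genes it was 1110 without EVI1 replicate 3, against 1831 with all arrays. Limma called 2 rises with all arrays and 2 without EGFP replicate 1. It called 1 without EVI1 replicate 1, EGFP replicate 2 or EGFP replicate 3, and none without EVI1 replicate 2 or 3. At an unadjusted p under 0.05, 3 members rose with all arrays. The median stayed between -0.30 and -0.25 whichever array was left out. Nothing in the labels tells separate cultures from repeats of 1 culture, so p-values measure the spread between these arrays only. In such bulk RNA, fewer cells of a type and less RNA per cell cannot be told apart.

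**Figure D1:**
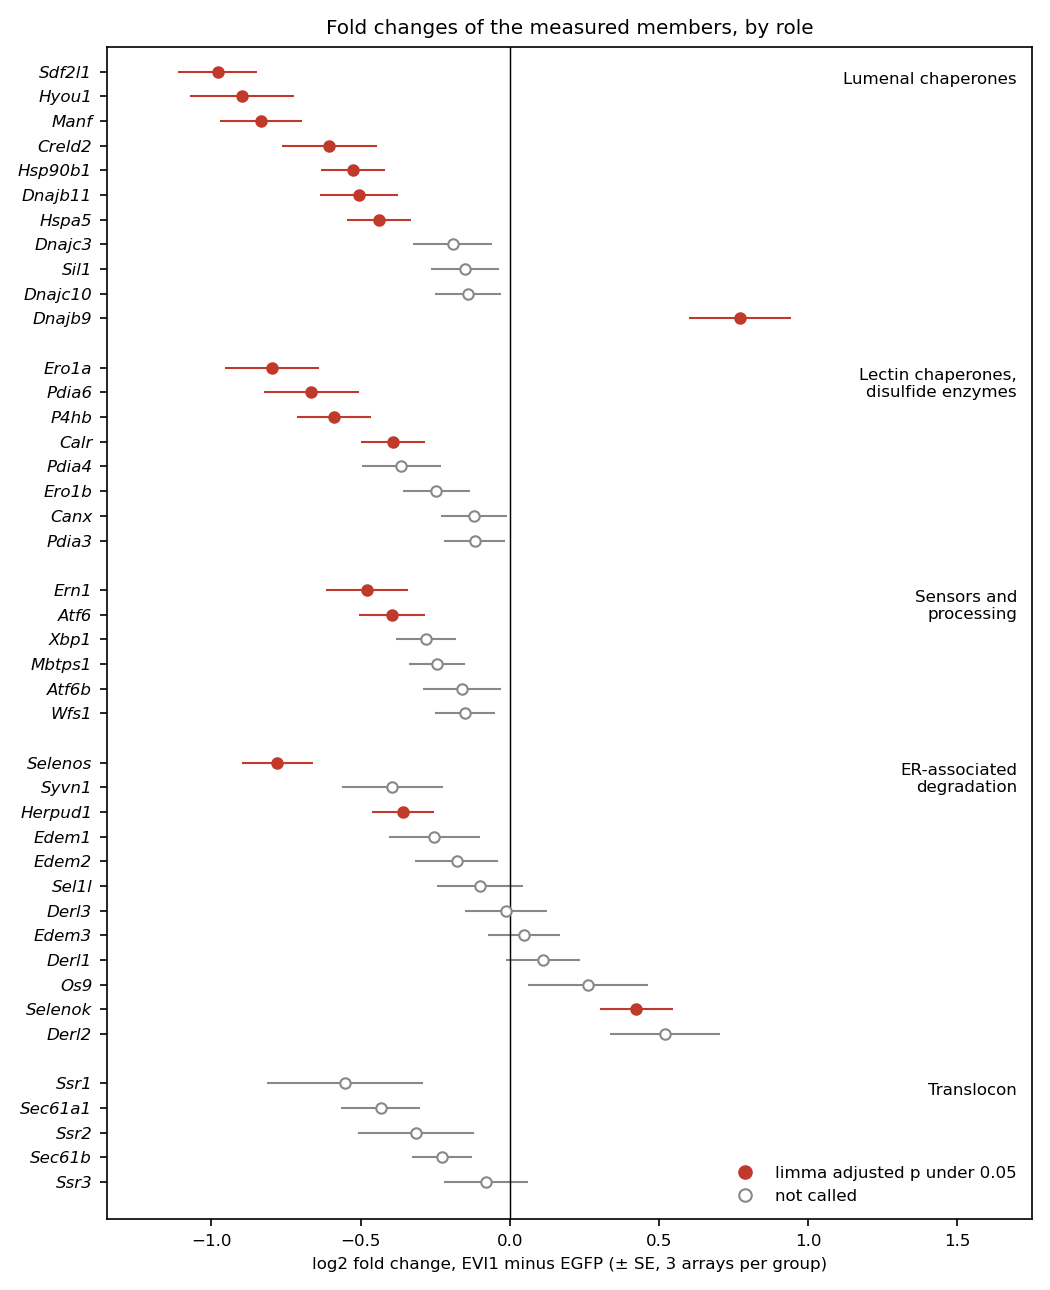
Log2 fold changes (EVI1 minus EGFP, horizontal axis, bars are SE, 3 arrays per group) of the 42 measured members, grouped by role and ordered within each role; filled points passed the test (limma adjusted p under 0.05). The lumenal chaperones and disulfide enzymes lie to the left of 0 except Dnajb9 at 0.77, while degradation genes lie on both sides.

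Most lumenal chaperones and their partners were lower: 7 of 11 fell and 1 rose, and 3 missed the threshold, with a median log2 fold change of -0.50. Hspa5, which encodes BiP, had log2 intensities of 11.58, 11.64 and 11.82 in the EVI1 arrays, against 12.14, 12.11 and 12.11 in the EGFP arrays. The groups did not overlap, and BiP was 1.35-fold lower (-0.44 ± 0.11, log2 fold change ± SE here and below; limma adjusted p = 0.0237). Hsp90b1, which encodes the ER Hsp90 protein GRP94, had 12.55, 12.51 and 12.46 in the EVI1 arrays, against 13.08, 12.89 and 13.12 in the EGFP arrays. It fell by 0.52 ± 0.11 (adjusted p = 0.0112), again without overlap. Hyou1, a large Hsp70 relative that exchanges the nucleotide of BiP, had 8.27, 8.71 and 8.64 in EVI1, against 9.16, 9.71 and 9.45 in EGFP. Every EVI1 value was below every EGFP value, and the fall was -0.90 ± 0.17 (adjusted p = 0.00876). Sil1, another nucleotide exchange factor of BiP, differed by -0.15 ± 0.11 and did not pass (adjusted p = 0.481).

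The steepest fall of the set was that of Sdf2l1, a lumenal partner of the BiP cochaperone Dnajb11. It had 8.79, 9.02 and 8.84 in the EVI1 arrays, against 9.66, 10.07 and 9.86 in the EGFP arrays, which is 1.97-fold lower (-0.98 ± 0.13, adjusted p = 0.00179). Dnajb11 itself had 10.65, 10.92 and 10.96 in EVI1, against 11.17, 11.48 and 11.39 in EGFP (-0.50 ± 0.13, adjusted p = 0.0312). Both members of this pair were lower on all 3 EVI1 arrays than on any EGFP array. Manf, a secreted and ER-resident cofactor of BiP induced by ER stress, had 8.998, 9.02 and 9.05 in EVI1, against 10.01, 9.57 and 9.99 in EGFP. It was 1.78-fold lower (-0.83 ± 0.14, adjusted p = 0.00431), and the SD among its EVI1 arrays was 0.02. Creld2, another ER protein induced by stress, had 9.50, 9.39 and 9.03 in EVI1, against 10.07, 9.69 and 9.98 in EGFP (-0.61 ± 0.16, adjusted p = 0.0318). The groups did not overlap for Manf or Creld2.

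Dnajb9 went the other way from every other lumenal member that passed. It encodes ERdj4, a BiP cochaperone that is known as a target of XBP1 and as a brake on IRE1. Its values were 9.38, 9.34 and 9.25 in the EVI1 arrays, against 8.78, 8.15 and 8.72 in the EGFP arrays, a 1.71-fold rise (0.77 ± 0.17, adjusted p = 0.0156). Of the remaining J-domain partners of BiP, Dnajc3 (-0.19 ± 0.13) and Dnajc10 (-0.14 ± 0.11), an ER disulfide reductase, did not pass. The EVI1 and EGFP arrays did not overlap for Dnajb9. Whichever EVI1 replicate was left out, its call was lost, since the adjusted p was 0.0533 to 0.0539 and the difference 0.74 to 0.81. The calls of Sdf2l1, Manf, Hyou1 and Hsp90b1 were kept whichever array was left out. Those of Hspa5 (without EVI1 replicate 1 or 2 or EGFP replicate 1 or 3, largest adjusted p = 0.0975), Dnajb11 (without EVI1 replicate 1, 2 or 3 or EGFP replicate 2 or 3, largest 0.113) and Creld2 (without EVI1 replicate 2 or 3 or EGFP replicate 1 or 3, largest 0.105) were not.

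**Figure D2:**
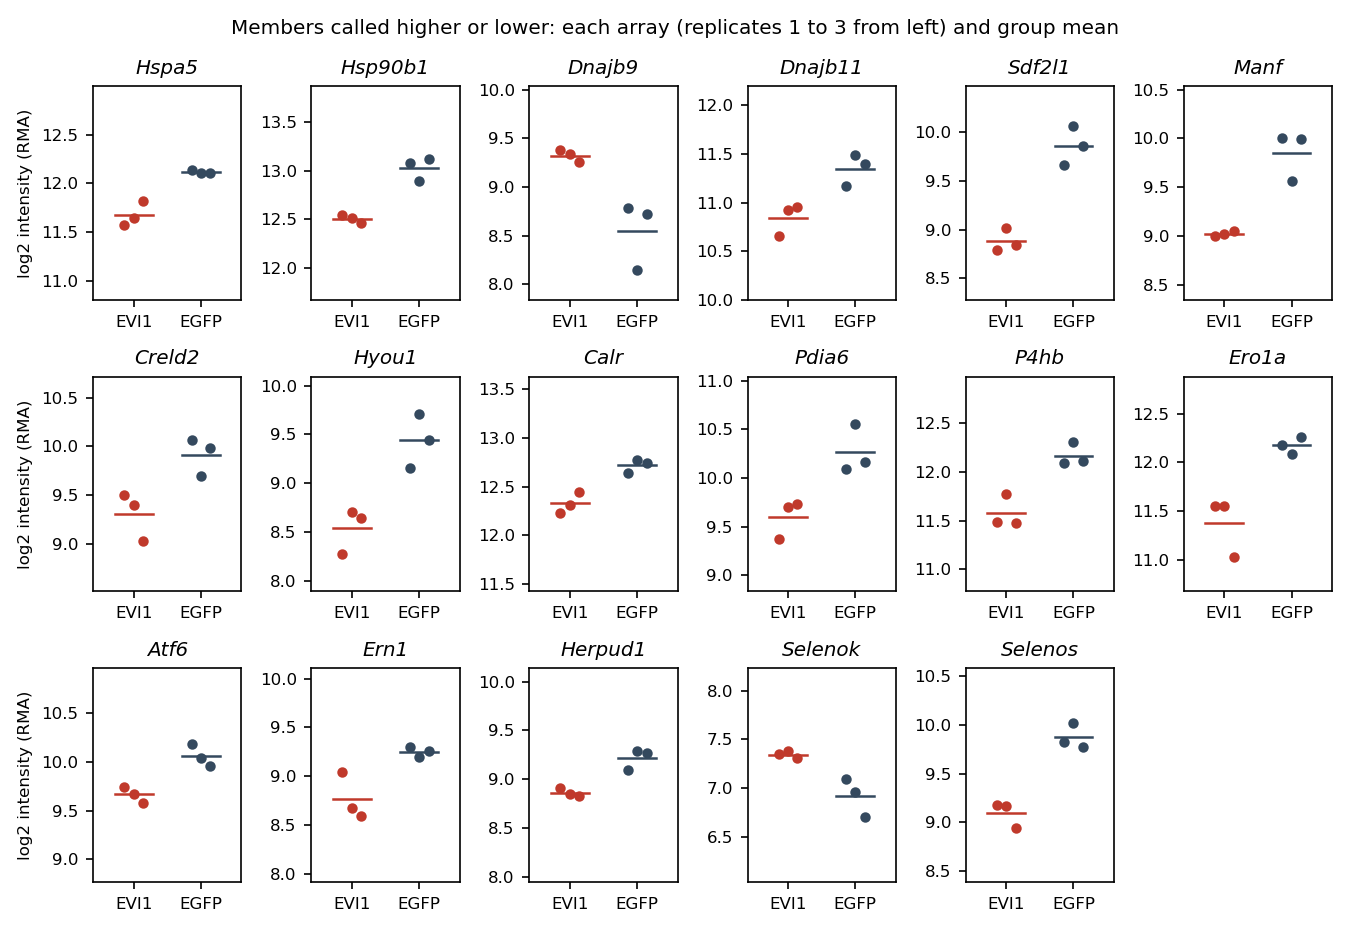
Log2 intensity (vertical axis, RMA, each panel spans the same range) on each array for the 17 members that passed the test; points are arrays, with replicates 1 to 3 from left to right, and lines are group means, EVI1 on the left and EGFP on the right. In every panel the EVI1 and EGFP arrays do not overlap; Dnajb9 and Selenok are higher in EVI1 and the other 15 are lower.

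Among the genes of glycoprotein and disulfide folding, limma called 4 of the 8 lectin chaperones and disulfide enzymes, all lower, and the other differences were negative as well. Ero1a, the oxidase that recharges protein disulfide isomerase and is also known to respond to hypoxia, had 11.55, 11.55 and 11.03 in EVI1, against 12.18, 12.09 and 12.26 in EGFP (1.74-fold lower, -0.80 ± 0.16, adjusted p = 0.00972). EVI1 replicate 3 was the lowest array, and without it the difference was -0.62 and still passed (adjusted p = 0.0188). P4hb, the classical protein disulfide isomerase, had 11.49, 11.78 and 11.48 in EVI1, against 12.09, 12.30 and 12.11 in EGFP (-0.59 ± 0.13, adjusted p = 0.0132). Pdia6, an isomerase that also acts on IRE1, had 9.37, 9.71 and 9.73 in EVI1, against 10.09, 10.55 and 10.16 in EGFP (-0.66 ± 0.16, adjusted p = 0.0219). For both isomerases the groups stood apart on all arrays. Calr, the soluble lectin calreticulin, had 12.23, 12.31 and 12.44 in EVI1, against 12.64, 12.78 and 12.74 in EGFP (-0.39 ± 0.11, adjusted p = 0.0361). Its groups did not overlap either.

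The other 4 genes of this group did not pass. Canx, the membrane-bound lectin calnexin, differed by -0.12 ± 0.11 (adjusted p = 0.583). Pdia3, the isomerase recruited by both lectins, differed by -0.12 ± 0.10 (adjusted p = 0.551). Ero1b, the second ER oxidase, differed by -0.25 ± 0.11 and did not pass, although all its EVI1 values (8.43 to 8.58) lay below the EGFP values (8.63 to 8.84). Whether Ero1a and Ero1b, or Calr and Canx, differed from each other in response was not tested. Pdia4 differed by -0.36 ± 0.13 (adjusted p = 0.106) and passed with a replicate block (adjusted p = 0.0469); its dimmer probe set differed by -0.10. The call of Calr was lost whichever array was left out (adjusted p = 0.0511 to 0.138), and those of P4hb and Pdia6 without EVI1 replicate 1 or 3 (0.0529 to 0.077).

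Among the stress sensors, limma called 2 of the 6 measured sensors and processing factors, both lower; 4 were lower at an unadjusted p under 0.05, and all 6 differences were negative. Atf6, the sensor that becomes a transcription factor after cleavage, had 9.75, 9.68 and 9.58 in EVI1, against 10.19, 10.04 and 9.96 in EGFP (-0.39 ± 0.11, adjusted p = 0.0402). Ern1, which encodes IRE1 alpha, had 9.05, 8.67 and 8.59 in EVI1, against 9.30, 9.19 and 9.26 in EGFP (-0.48 ± 0.14, adjusted p = 0.0448). Both sets of values stood apart by group, but both calls lay close to the threshold. That of Atf6 was lost whichever array was left out, and that of Ern1 was lost without any of them other than EVI1 replicate 1, with adjusted p-values of 0.0506 to 0.153 in those fits.

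Xbp1, whose mRNA IRE1 splices, did not pass. Its values were 9.47, 9.28 and 9.34 in EVI1, against 9.66, 9.61 and 9.64 in EGFP (-0.28 ± 0.10, adjusted p = 0.104). The groups did not overlap, but a probe set summarised over the transcript does not separate spliced from unspliced Xbp1. Atf6b, a relative of Atf6, overlapped between groups, with 8.19, 8.48 and 8.47 in EVI1 and 8.38, 8.68 and 8.56 in EGFP (-0.16 ± 0.13, adjusted p = 0.517). Mbtps1, a protease that cleaves ATF6, differed by -0.24 ± 0.09 (adjusted p = 0.127), and Wfs1, an ER membrane protein of secretory cells, by -0.15 ± 0.10 (adjusted p = 0.416).

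Of 12 degradation factors limma called 2 lower (16.7%) and 1 higher (8.33%), beside 9.18% and 9.06% of all genes, and the median log2 fold change was -0.056 with 5 differences above 0. Selenos, a selenoprotein that links the p97 ATPase to the Derlins, had 9.17, 9.16 and 8.94 in EVI1, against 9.82, 10.02 and 9.78 in EGFP (1.72-fold lower, -0.78 ± 0.12, adjusted p = 0.00305), and kept its call whichever array was left out. Selenok, a second selenoprotein of the same membrane complex, moved the opposite way. It had 7.35, 7.38 and 7.30 in EVI1, against 7.09, 6.96 and 6.71 in EGFP (0.42 ± 0.12, adjusted p = 0.0473). The mean over its EGFP arrays was below 6.95, which 95% of 1027 olfactory receptor genes do not exceed in that group, so the size of its rise is uncertain, and the call was lost when any array other than EGFP replicate 1 was left out (adjusted p = 0.0568 to 0.141). Herpud1, a stress-induced membrane protein of the HRD1 complex, had 8.91, 8.84 and 8.83 in EVI1, against 9.10, 9.29 and 9.27 in EGFP (-0.36 ± 0.10, adjusted p = 0.0474). Its call was lost with a replicate block (adjusted p = 0.0566) and when any array other than EGFP replicate 1 was left out (0.0904 to 0.141). For Selenos, Selenok and Herpud1 the groups did not overlap.

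The core of the HRD1 complex did not pass. Syvn1, the HRD1 ligase, differed by -0.39 ± 0.17 (adjusted p = 0.171) and Sel1l, its scaffold, by -0.10 ± 0.14 (adjusted p = 0.761). The mannose-trimming proteins Edem1, Edem2 and Edem3, which mark glycoproteins for disposal, differed by -0.25, -0.18 and 0.047. The lectin Os9 differed by 0.26 ± 0.20. Of the Derlins, membrane proteins of the exit channel, Derl1 differed by 0.11 and Derl2 by 0.52 ± 0.18 (adjusted p = 0.0954). Derl2 passed as a rise with a replicate block (adjusted p = 0.0189) and without EVI1 replicate 1 (0.72, adjusted p = 0.0198). Derl3 was at the level of olfactory receptor genes in both groups (means of 6.82 in EVI1 and 6.83 in EGFP).

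None of the 5 measured translocon genes passed limma's test, beside 18.2% of all genes. Of the 5, 1 (Sec61a1) had an unadjusted p under 0.05. All 5 differences were negative, with a median log2 fold change of -0.31. Sec61a1, the channel itself, had a mean of 11.54 ± 0.14 in EVI1 and 11.97 ± 0.19 in EGFP (SD), a difference of -0.43 ± 0.13 (adjusted p = 0.0569). Ssr1, of the translocon-associated TRAP complex, had 10.01, 10.86 and 10.69 in EVI1, against 10.71, 11.50 and 11.00 in EGFP (-0.55 ± 0.26, adjusted p = 0.215). Replicate 1 was the lowest and replicate 2 the highest array of either group, so the values overlapped between groups while each EVI1 array lay below the EGFP array of its number. With a replicate block both passed (adjusted p = 0.0205 for Sec61a1, 0.0176 for Ssr1). Sec61a1 passed in 6 of 15 alternative fits: with the block, with either filter on dim genes (adjusted p = 0.0472 and 0.0443), after further quantile normalisation (0.0277), with array weights (0.0363) and without EGFP replicate 1 (0.0338). Sec61b (-0.23 ± 0.10), Ssr2 (-0.31 ± 0.20) and Ssr3 (-0.08 ± 0.14) did not pass; the dimmer probe sets of Sec61b differed by 0.15 and -0.11.

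**Figure D3:**
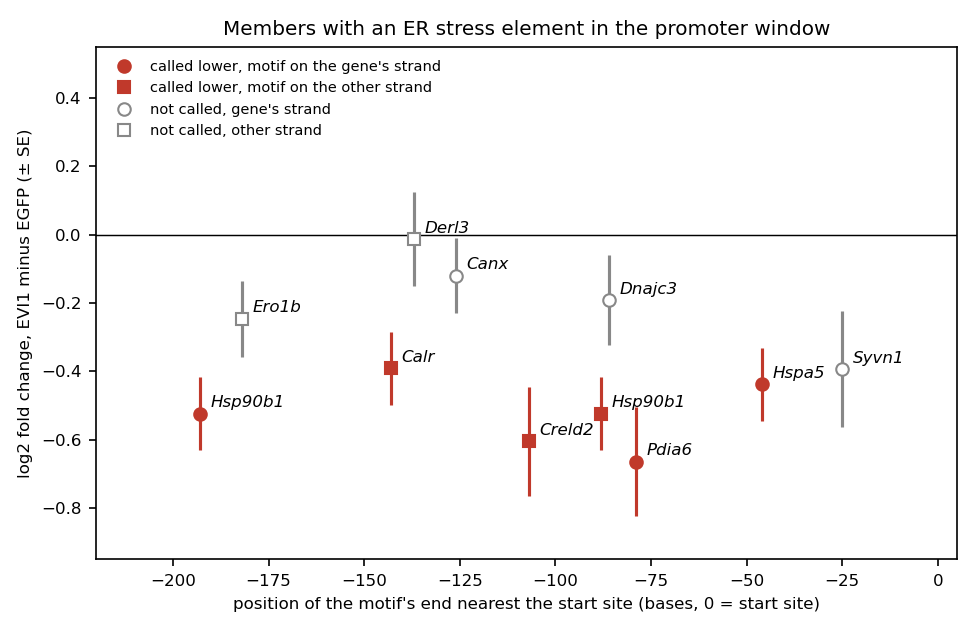
Log2 fold change (EVI1 minus EGFP, vertical axis, bars are SE, 3 arrays per group) of the 10 members with an ERSE against the distance of the element from the transcription start (horizontal axis, bases). Filled points passed the test; the elements lie 25 to 193 bases before the start, and Hsp90b1 appears at both of its elements.

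Set against the promoters, 5 of the 10 members with an ERSE fell, beside 9.18% of all genes, and the median of the 10 was -0.39. All 10 differences were negative, as were those of 36 of all 42 measured members. Of 25 members whose window held no ERSE 7 fell and 2 rose (Dnajb9 and Selenok), beside 9.18% and 9.06% of all genes. The median of the 25 was -0.23. Herpud1 and Dnajb11, whose windows hold the related ERSE-II, are among these 7 falls. Whether the shares of falls with and without an ERSE differ was not tested. Among the 11 other genes measured here whose window held the element, none passed limma's test in either direction or with a replicate block. Of these, 2 (Pan2 and Zfp57) had an unadjusted p under 0.05, and the median was 0.023. Over all genes 18.2% passed in either direction, and with a replicate block 11.0% fell and 10.9% rose. Whether the 11 genes differ from those shares was not tested. The 11 include an olfactory receptor gene, Olfr59, and whether each of them was expressed in these cells was not tested. Atf6, Derl1, Hyou1, Manf, Sec61a1, Sil1 and Ssr2 have no window in the table and enter none of these counts except that over all 42 members.

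Further genes of the pathway, 108 measured of 112 listed, had 14 falls (13.0%) and 9 rises (8.33%), beside 9.18% and 9.06% of all genes, with a median of -0.11. The count of falls was 7 without EVI1 replicate 1, 6 without EVI1 replicate 3 and 8 without EGFP replicate 3. The count of rises was 4, 3 and 3 without EVI1 replicates 1, 2 and 3, and 5 and 2 without EGFP replicates 1 and 3. In the PERK and ATF4 arm 5 of 14 genes rose and 1 fell. Atf4, the transcription factor translated when eIF2 alpha is phosphorylated, fell by 0.86 ± 0.16 (adjusted p = 0.00846), while Nupr1, a stress-induced chromatin protein (0.91 ± 0.15, adjusted p = 0.00421), Ppp1r15a, which recruits a phosphatase to eIF2 alpha (0.57 ± 0.15, adjusted p = 0.0321), and the pseudokinase Trib3 (0.38 ± 0.10, adjusted p = 0.0284) rose. Eif2ak3, which encodes PERK itself, differed by -0.13 ± 0.13, and Ddit3 (CHOP) by -0.35 ± 0.19; neither passed. The 2 further rises in this list, Atf3 (0.62 ± 0.18, adjusted p = 0.0467) and Cebpb (0.35 ± 0.10, adjusted p = 0.0445), lay close to the threshold.

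Of 19 further folding enzymes 4 fell and 1 rose. The thioredoxin-like Txndc11 (-0.77 ± 0.10, adjusted p = 0.00131), the prolyl isomerase Fkbp11 (-0.95 ± 0.20, adjusted p = 0.0122, EVI1 mean at the level of olfactory receptor genes) and the isomerase Pdia5 (-0.49 ± 0.12, adjusted p = 0.0261) fell, and the membrane-bound Tmx3 rose (0.39 ± 0.11, adjusted p = 0.0399). Of 19 genes of translocation, signal peptidase and the signal recognition particle 4 fell: Srp19 (-0.71), Spcs3 (-0.60), Srp68 (-0.70) and Srprb (-0.73); limma called none higher, and 1 was higher at an unadjusted p under 0.05. Of 18 genes of N-glycosylation 2 fell, the oligosaccharyltransferase subunits Rpn1 (-0.43 ± 0.12) and Rpn2 (-0.45 ± 0.12); Ostc (-0.37) and Stt3b (-0.41) did not pass. With a replicate block 4 of the 18 fell, Stt3b among them (adjusted p = 0.0392). Of 17 further degradation genes 1, Herpud2, rose (0.53 ± 0.12, adjusted p = 0.0185), and none fell by limma, with 3 lower at an unadjusted p under 0.05 and 1 lower with a replicate block. Erlec1 (0.66), Rnf139 (0.37) and Ufd1 (-0.31) did not pass, and Erlec1 passed with the block (adjusted p = 0.0343). Among 21 further stress factors and export genes 3 fell and 2 rose. Creb3, an ER-anchored transcription factor, rose 1.95-fold (0.97 ± 0.13, adjusted p = 0.00171), and its relative Creb3l2 fell (-0.52 ± 0.12, adjusted p = 0.0182). The cargo receptor subunits Lman1 and Mcfd2, which act as a complex in export from the ER, moved in opposite directions (-0.72 ± 0.14 and 0.53 ± 0.12).

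**Figure D4:**
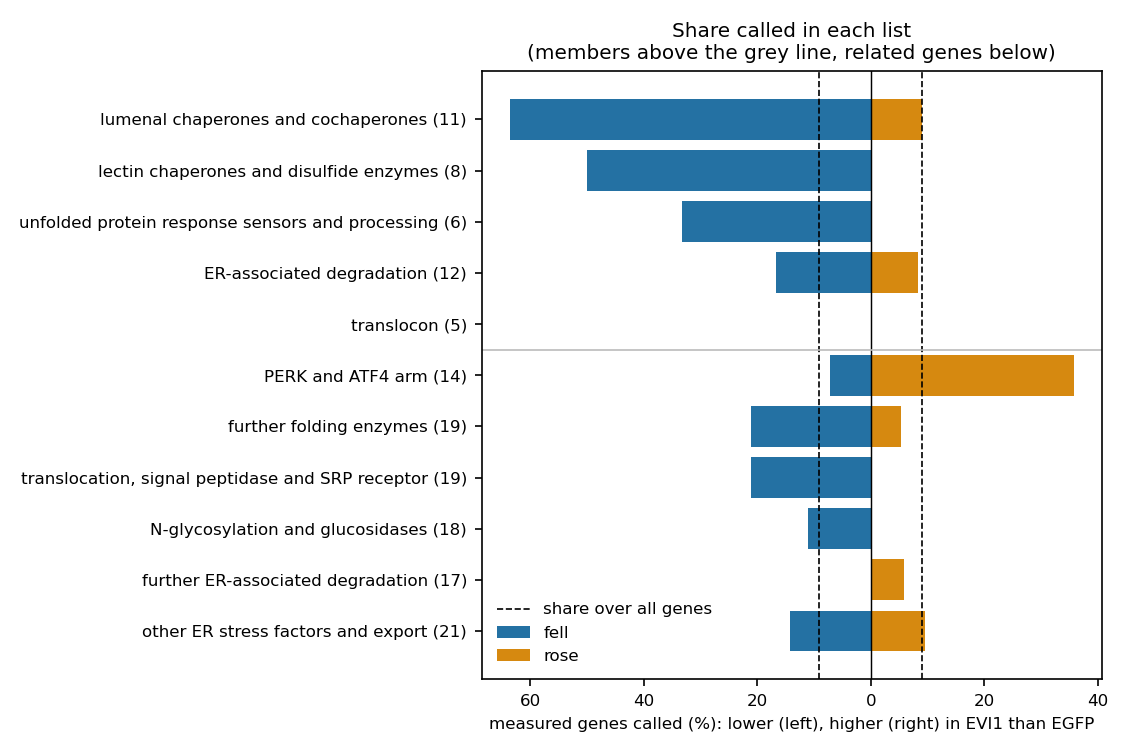
Share of measured genes (percent, horizontal axis) called lower (left, blue) or higher (right, orange) in EVI1 than in EGFP arrays by limma, for the 5 roles of the members and 6 lists of related genes, with the number measured in brackets; dashed lines mark the shares over all genes, 9.18% lower and 9.06% higher. Lumenal chaperones reach 63.6% lower and lectin chaperones and disulfide enzymes 50.0%, while the PERK and ATF4 arm reaches 35.7% higher.

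Markers of granule-forming cells were lower in the same arrays as the folding genes. For the counts of markers below, 9.18% of all genes fell and 9.06% rose. Of 8 mast cell and basophil markers 7 fell, and the mean log2 value of the list was 8.45 to 8.69 on the EVI1 arrays, against 9.96 to 10.5 on the EGFP arrays. Of 8 neutrophil granule markers 6 fell, with a mean of 8.52 to 8.998 on the EVI1 arrays and 10.6 to 11.0 on the EGFP arrays. The median log2 fold change was -1.43 over the mast cell list and -2.30 over the neutrophil list, against -0.27 over the ER members. The part of these markers in the lower values of the ER members was not tested. Of 8 plasma cell markers none passed limma's test, none with a replicate block, 2 (Xbp1 and Irf4) had an unadjusted p under 0.05, and 4, including Jchain and Tnfrsf17, were at the olfactory receptor level in both groups. Xbp1 and Derl3 of this list are also members of the ER set. The list mean was 6.92 to 7.01 on the EVI1 arrays and 7.03 to 7.08 on the EGFP arrays. Over the 7 progenitor markers, 5 of which fell, the list mean was 9.11 to 9.24 on the EVI1 arrays and 10.00 to 10.10 on the EGFP arrays; Cd34 differed by -2.45, Myb by -1.61 and Flt3 by -1.52. Of 8 macrophage markers 3 rose and 2 fell, with list means of 8.95 to 9.27 on the EVI1 arrays and 8.59 to 9.08 on the EGFP arrays. Of 7 lymphoid markers 1 rose and 1 fell (14.3% each), with means of 7.18 to 7.25 on the EVI1 arrays and 7.04 to 7.36 on the EGFP arrays. Of 6 erythroid markers 3 rose (8.28 to 8.40 on the EVI1 arrays, 7.70 to 7.75 on the EGFP arrays), and of 6 stromal and endothelial markers 2 rose, Cdh5 and Kdr (7.94 to 8.40 on the EVI1 arrays, 7.43 to 7.57 on the EGFP arrays). The part of these lists in the results was not tested either.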

How the data were processed

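The authors deposited 1 log2 intensity per probe set for each 1-colour Affymetrix array, summarised by RMA according to the submitters' processing notes, and the version of RMA is not given in the sources used here. Precision is limited by the number of arrays. Of 34760 probe sets, 21640 carried exactly 1 symbol in the platform annotation, 1321 several, and 11799 are unnamed here. No dim probe set was removed and no detection call was used. The 3 EVI1 and 3 EGFP arrays were compared by a two-sided moderated test (lmFit and eBayes of limma 3.58.1, R 4.3.3) with Benjamini-Hochberg adjustment over 19937 genes. The fit was tested on simulated data. Same-numbered arrays of the groups deviated together (r = 0.491, 0.269 and 0.197 for replicates 1, 2 and 3), so the replicate number was added as a block in an alternative fit. Members and lists were chosen with earlier results of these data known. Values on each array are given for members that passed and for Xbp1, Atf6, Atf6b and Ern1; in each related list up to 4 genes with the smallest p are named, and Eif2ak3, Ddit3, Atf3, Cebpb, Ssr1, Pan2, Zfp57 and the marker genes were named after their values were seen. The planned description of protein ends was not run, because no protein table was used here.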

Additional observations from a re-analysis of the deposited data

How the results depend on the processing

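Of the 15 alternatives to the reported fit, 6 left out 1 array each and the others changed the block, the filter, the probe set, the normalisation, the variance estimate or the array weights. Sdf2l1, Manf, Hyou1, Hsp90b1, Ero1a and Selenos kept their calls in all 15, and the other 11 called members lost theirs in at least 1. With a replicate block 17 members fell and 3 rose, against 11.0% and 10.9% of all genes, and 16 members were called the same way by both fits. It added Pdia4, Sec61a1 and Ssr1 to the falls and Derl2 to the rises, dropped Herpud1, and moved neither count by over 1.5 times. With eBayes trend and robust estimation 12 members fell. Rises numbered 1 with the filter at the median of mean level, with a further quantile normalisation and with median centring. Leaving out 1 array gave 2289 to 4098 changed genes, 7 to 11 members fallen, 0 to 2 risen, 6 to 14 related genes fallen and 2 to 9 risen, with fewer arrays in each fit; Mecom differed by -0.87 to -0.30. Signs turned among these fits for 4 members that were not called: Edem3 (-0.0341 without EVI1 replicate 2, up to 0.1472), Derl3 (0.0633 without EVI1 replicate 1 and 0.0889 without EGFP replicate 2, down to -0.1114), Sel1l (0.0273 without EGFP replicate 2, down to -0.1928) and Ssr3 (0.0384 without EVI1 replicate 1, down to -0.1707). Selenok and Derl3 lie near the level of olfactory receptor genes, where the array limits what can be measured.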
